A study of Homo sapiens with 6 samples.

Results

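The genes described here are 10 genes through which astrocytes handle water, potassium and glutamate. Chosen for their known roles, with earlier results of these data known, they are AQP4, MLC1, KCNJ16, KCNJ10, ATP1B2, SLC1A3, SLC1A2, GLUL, GJA1 and SLC4A4. They are 10 of 27439 genes with reads, and 10 of 10 passed the filter on low counts that left 15984 genes to test. RNA came from astrocytes derived from H1, an established human embryonic stem cell line. One group of 3 libraries is the control, to which the labels give a forebrain character, and the other group of 3 libraries has a ventral midbrain character. The libraries in each group are numbered 2, 3 and 4, and the labels give no treatment or genotype beyond the line. The labels name the cell type as hESC and the source as astrocyte. A single cell line was used, the labels do not say that libraries came from separate cultures, and p-values therefore measure the spread between these samples.

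An astrocyte takes up the potassium that neurons release, through inwardly rectifying channels and the sodium pump, and water follows through the channel AQP4 at the endfeet on blood vessels. It clears synaptic glutamate with sodium-driven transporters and turns it into glutamine for return to neurons. Gap junctions spread potassium and small molecules through the astrocyte network, and sodium bicarbonate cotransport links this traffic to pH.

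The libraries read the 3' end of polyadenylated transcripts and held 11617935 to 15391082 estimated reads. Levels are given as CPM, read counts scaled to a common library size after TMM scaling, with no division by transcript length. Of the astrocyte markers outside the 10 genes, VIM stood at 3264 to 5226 CPM, GFAP at 175 to 618 CPM, SOX9 at 162 to 265 CPM and S100B at 5.78 to 10.6 CPM. ALDH1L1 was at 0.378 to 2.05 CPM, and no read was assigned to HEPACAM in any library, so the astrocyte label rests on part of its usual markers. Fewer cells of a type and less RNA per cell cannot be told apart in these bulk samples.

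Of the 10 genes 4 rose in ventral midbrain libraries, AQP4, MLC1, KCNJ16 and SLC1A3, and 0 fell. The test was edgeR's quasi-likelihood test with a Benjamini-Hochberg adjusted p under 0.05 over all genes, and it called 2.15% of the 15984 genes, 1.06% as higher and 1.09% as lower. The count of falls was also 0 with DESeq2 and with voom, and the 4 genes with an unadjusted p under 0.05 were the 4 that rose. Those fits leave out the replicate numbers that the groups share. With the replicate number as a block the same 4 rose and 1, GJA1, fell, in a fit that called 8.13% of all genes. On group alone the fitted change was positive in 8 of the 10 genes, against 51.7% of all tested genes. The median log2 fold change was 0.50 against 0.01. Groups did not overlap in 4 of the 10 genes, all higher in ventral midbrain libraries, which held for 17.9% of all tested genes in either direction and 9.17% in that one. Because the 10 genes were chosen with earlier results of these data known, these shares are a description and carry no test. The 4 that rose are a water channel, a membrane protein of the same endfeet, a potassium channel subunit and a glutamate transporter.

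The upstream sequences of AQP4 and KCNJ16, the pair with the largest fold changes among the 10, show what lies before their starts. These are the 250 bases before each RefSeq start (GRCh38.p14), at chr18:26865804-26866053 on the minus strand for AQP4 and at chr17:70074975-70075224 on the plus strand for KCNJ16, 5′ to 3′, with capitals for a CAGCTG E-box.
AQP4: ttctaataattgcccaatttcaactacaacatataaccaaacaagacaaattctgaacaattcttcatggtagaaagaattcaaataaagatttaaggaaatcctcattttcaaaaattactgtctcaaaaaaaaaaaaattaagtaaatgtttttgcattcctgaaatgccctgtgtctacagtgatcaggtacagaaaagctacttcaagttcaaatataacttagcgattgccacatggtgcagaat
KCNJ16: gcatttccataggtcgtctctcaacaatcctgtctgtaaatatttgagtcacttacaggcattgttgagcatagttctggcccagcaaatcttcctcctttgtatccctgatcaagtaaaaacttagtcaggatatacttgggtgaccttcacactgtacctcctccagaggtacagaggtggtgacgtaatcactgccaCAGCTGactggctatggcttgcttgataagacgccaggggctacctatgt
RefSeq starts were matched for 9 of the 10 genes. The AQP4 stretch is poor in G and C (30.4%, against a median of 58% over 27305 RefSeq promoters searched the same way) and KCNJ16 lies between (46.4%). Searched on both strands, CAGCTG was found before KCNJ16 and GLUL and in 13.8% of all promoters. TTGGCA, part of the nuclear factor I site (10.9% of promoters), the full palindromic form of that site (0.033%) and TATAAA (11.1%) were found before none of the 9 genes, and the STAT motif TTCNNNGAA (6.78%) before SLC1A3. For SLC1A3 the RefSeq start lies 9767 bases from the start of the transcript that took most of its reads. For SLC4A4 the distance is 124626 bases, for ATP1B2 4485 bases and for GLUL 386 bases, so these stretches may not directly precede the transcripts measured. All 250 bases before KCNJ10, MLC1 and GLUL lie within annotated exons. Matches are letters in a window and were not tested as binding sites.

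AQP4 (ENSG00000171885.14, chromosome 18, 26852038 to 26865818, minus strand) encodes the main water channel of astrocytes. It stood at 3.66, 1.71 and 6.20 CPM in control libraries 2, 3 and 4 and at 21.8, 19.5 and 50.4 CPM in ventral midbrain libraries 2, 3 and 4. Each ventral midbrain library lay above each control library, and library 4 was the highest of its group in both groups. The means were 3.86 ± 2.25 and 30.5 ± 17.2 CPM (SD, n = 3), a 7.92-fold difference. On the log2 scale the fitted change was 2.98 ± 0.56 (SE), with an adjusted p of 0.048 in edgeR, close to the threshold. Within the numbered pairs the log2 difference was 2.53, 3.40 and 2.99. Leaving out any one control library, or ventral midbrain replicate 2, ended the call (adjusted p 0.056 to 0.21). The log2 change stayed between 2.41 and 3.49 over the left-out libraries. With the replicate number as a block and all libraries kept, the adjusted p was 3.2e-06 in edgeR. A total of 1439 reads were assigned to 1 transcript of AQP4, and its antisense gene AQP4-AS1 had 0 to 5 reads in a library.

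MLC1 (ENSG00000100427.15, chromosome 22, 50059391 to 50085902, minus strand) encodes a membrane protein of astrocyte endfeet that takes part in the regulation of cell volume. Control libraries were close together at 6.44, 6.08 and 6.88 CPM, and ventral midbrain libraries stood at 17.6, 37.3 and 38.03 CPM. Ventral midbrain library 2 was the lowest of its group and lay above each control library. Its 4.79-fold difference in means had a fitted log2 change of 2.26 ± 0.30 (SE) and an adjusted p of 0.0045 in edgeR, and the call held with each library left out in turn (highest adjusted p = 0.031). HEPACAM, which encodes the adhesion protein that MLC1 binds, had 0 reads in 6 of 6 libraries, a count that allows up to 3 reads per library.

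KCNJ16 (ENSG00000153822.13, chromosome 17, 70053429 to 70135608, plus strand) encodes Kir5.1, a subunit that forms channels together with Kir4.1. It had 30, 27 and 14 reads in control and 223, 242 and 115 reads in ventral midbrain libraries, or 2.20, 2.31 and 1.06 CPM against 14.5, 19.0 and 8.24 CPM. Library 4 was the lowest of its group in both groups, and the groups did not overlap. The means, 1.85 ± 0.692 and 13.9 ± 5.39 CPM (SD, n = 3), differed 7.50-fold. The fitted log2 change of 2.90 ± 0.42 (SE) had an adjusted p of 0.0061 in edgeR, and the call held with each library left out (highest adjusted p = 0.031). KCNJ10 (ENSG00000177807.9, chromosome 1, 159998651 to 160070483, minus strand) encodes Kir4.1 itself, the main potassium channel of mature astrocytes. It had 3, 10 and 7 reads in control and 16, 11 and 7 reads in ventral midbrain libraries, or 0.220, 0.856 and 0.529 CPM against 1.04, 0.863 and 0.501 CPM. The groups overlapped, and the log2 change of 0.59 ± 0.84 (SE) had an adjusted p of 0.88 in edgeR. In total KCNJ10 had 20 control and 34 ventral midbrain reads, and with each library left out in turn its log2 change ran from 0.21 to 1.08, below the 2.61 to 3.17 of KCNJ16. The difference between these genes was not tested, and a small rise or a fall of KCNJ10 was not detectable at this depth. KCNJ2, another inward rectifier, was at 6.51, 1.11 and 1.97 CPM in control and 5.59, 3.999 and 3.01 CPM in ventral midbrain libraries (edgeR adjusted p = 0.89).

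SLC1A3 (ENSG00000079215.13, chromosome 5, 36606355 to 36688334, plus strand) encodes the glutamate transporter EAAT1, which radial glia and astrocytes both carry. It stood at 33.7, 47.4 and 24.96 CPM in control and at 68.1, 121 and 93.7 CPM in ventral midbrain libraries, with no overlap between the groups. The means were 35.4 ± 11.3 and 94.4 ± 26.7 CPM (SD, n = 3), a 2.67-fold difference. The fitted log2 change was 1.42 ± 0.27 (SE), with an adjusted p of 0.034 in edgeR. Leaving out control replicate 2 or 4, or ventral midbrain replicate 3 or 4, ended the call (adjusted p 0.070 to 0.12). With the replicate number as a block and all libraries kept, the adjusted p of SLC1A3 was 0.00012 in edgeR. SLC1A2 (ENSG00000110436.12, chromosome 11, 35251205 to 35420063, minus strand) encodes EAAT2, the transporter that dominates in mature forebrain astrocytes. It had 21, 32 and 45 reads in control and 12, 28 and 32 reads in ventral midbrain libraries, lower in ventral midbrain in 3 of 3 numbered pairs but with overlapping groups. The log2 change of -0.54 ± 0.59 (SE) had an adjusted p of 0.82 in edgeR. A small or moderate change of SLC1A2 in either direction could have been missed at this depth. GLUL (ENSG00000135821.18, chromosome 1, 182381704 to 182392206, minus strand) encodes glutamine synthetase. It was at 87.0, 65.0 and 86.8 CPM in control and 110, 102 and 86.7 CPM in ventral midbrain libraries, and the ventral midbrain library 4 lay within the control range. Its log2 change of 0.32 ± 0.17 (SE) did not pass, with an adjusted p of 0.51 in edgeR.

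GJA1 (ENSG00000152661.8, chromosome 6, 121435577 to 121449727, plus strand) encodes connexin 43, the main gap junction protein of astrocytes. It stood at 75.6, 45.2 and 45.1 CPM in control and at 52.0, 30.6 and 22.6 CPM in ventral midbrain libraries. Library 2 was the highest of its group in both groups, and the groups overlapped because ventral midbrain library 2 lay above control libraries 3 and 4. Each ventral midbrain library was below the control library of the same number, by 0.54, 0.56 and 0.99 on the log2 scale. Its log2 change was -0.66 ± 0.33 (SE), with an adjusted p of 0.51 in edgeR. With the replicate number as a block the change was -0.70 ± 0.15 (SE), with an adjusted p of 0.0079 in edgeR. GJA1 was the single gene of the 10 whose call the block changed, in a fit that called 8.13% of all genes, 3.63% as higher and 4.5% as lower. GJB6, the gene of the second astrocyte connexin, connexin 30, had 0 reads in each library.

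SLC4A4 (ENSG00000080493.16, chromosome 4, 71062667 to 71572087, plus strand) encodes the sodium bicarbonate cotransporter NBCe1. It was at 6.95, 4.19 and 3.78 CPM in control and at 6.83, 6.59 and 6.52 CPM in ventral midbrain libraries, where the 3 values lay close together inside the wider control range. A log2 change of 0.42 ± 0.34 (SE) did not pass, with an adjusted p of 0.73 in edgeR. ATP1B2 (ENSG00000129244.8, chromosome 17, 7646627 to 7657768, plus strand) encodes the glial beta subunit of the sodium pump. It was at 136, 103 and 142 CPM in control and 149, 112 and 157 CPM in ventral midbrain libraries, with library 3 the lowest of both groups. The log2 change of 0.13 ± 0.18 (SE) had an adjusted p of 0.87 in edgeR, and the groups overlapped.

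**Figure D1:**
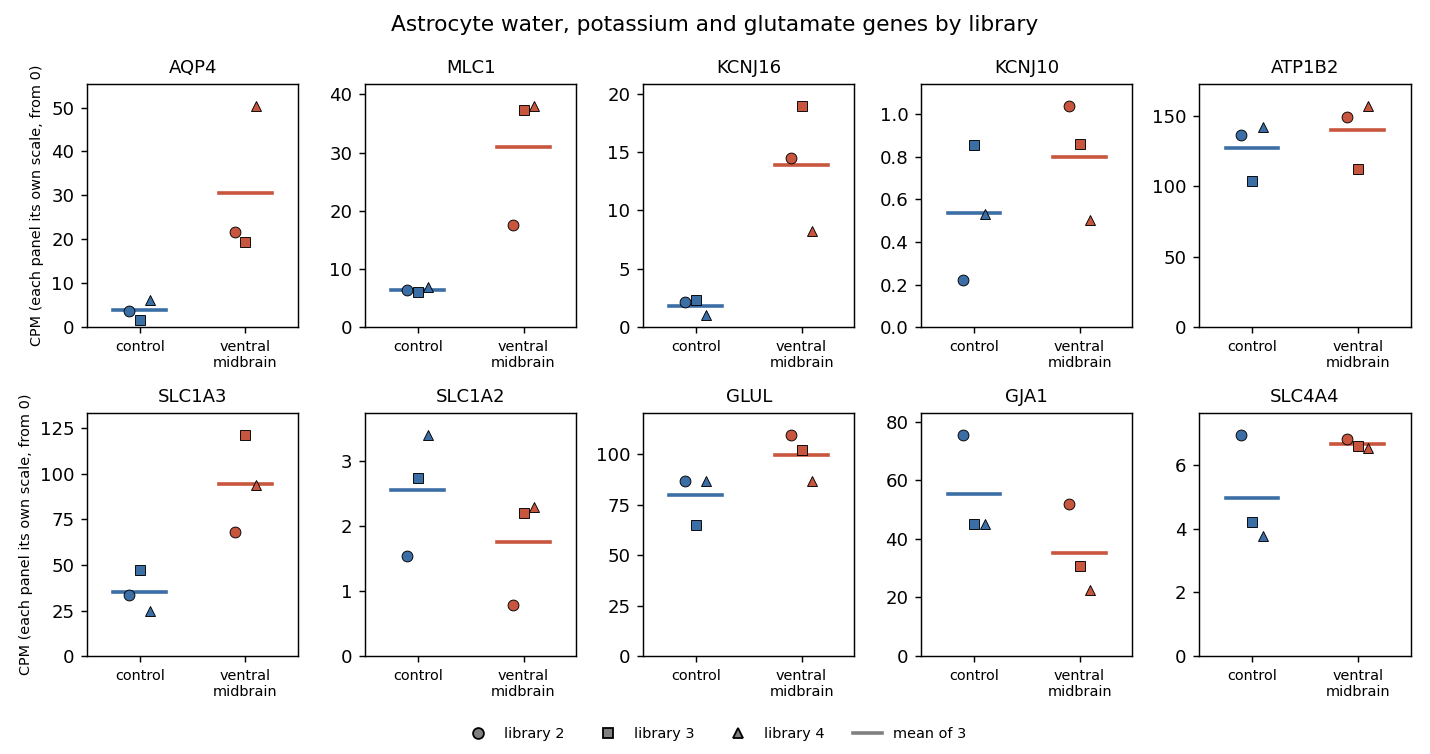
CPM of each of the 10 genes in 6 libraries, one panel per gene with its own linear axis from 0. Points are libraries (shape gives the library number) and lines are means of 3. In AQP4, MLC1, KCNJ16 and SLC1A3 each ventral midbrain point lies above each control point, and in the other panels the groups overlap.

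**Figure D2:**
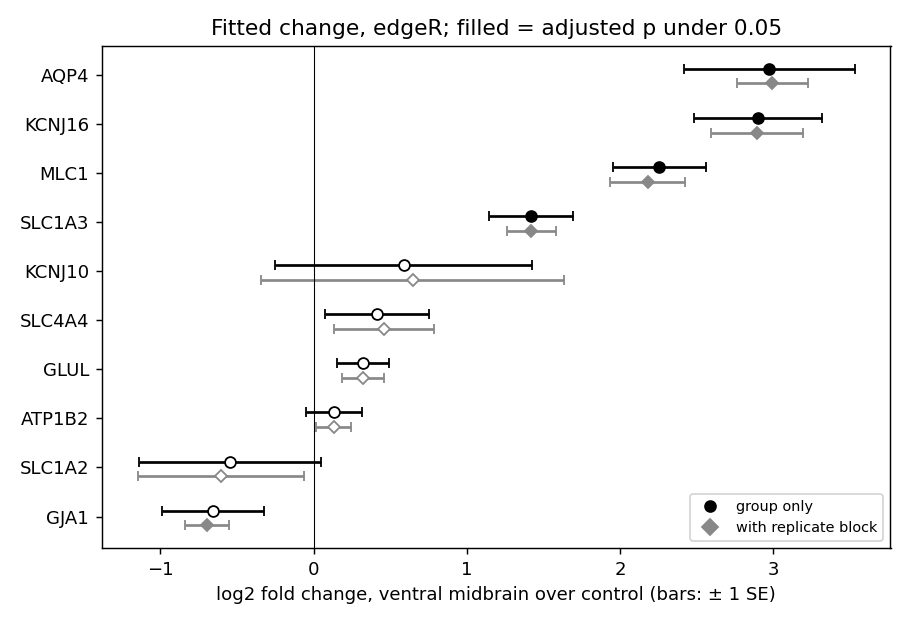
Fitted log2 fold change of the 10 genes (ventral midbrain over control) with bars of 1 SE, from the fit on group alone (circles) and with the replicate block (diamonds), filled where the adjusted p is under 0.05. The 4 genes that rose lie between 1.42 and 2.98 on group alone and between 1.42 and 2.99 with the block, and GJA1 at -0.70 is filled in the blocked fit alone.

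The 4 genes that rose did not follow one order among libraries of a group. AQP4 was highest in library 4 of both groups, whereas KCNJ16 was lowest there, with deviations from the group mean of log2 CPM of 0.84 and 0.86 for AQP4 and -0.66 and -0.67 for KCNJ16. MLC1 deviated by at most 0.09 in control libraries and by -0.73, 0.35 and 0.38 in ventral midbrain libraries 2, 3 and 4. SLC1A3 was highest in library 3 of both groups. The 2 libraries numbered 3 also stood apart in cell cycle genes, with TOP2A at 1689 and 2450 CPM against 501 to 720 CPM in the other libraries. Without both of them the 4 genes that rose kept their calls (edgeR adjusted p 0.023 to 0.037). Their 4 calls also held with DESeq2, voom, a gene-length offset and the authors' deposited normalized values. The replicate block kept them too (edgeR adjusted p 3.2e-06 to 0.00012), in a fit that called 8.13% of all genes. With reads of protein-coding transcripts alone MLC1 and KCNJ16 passed, while AQP4 and SLC1A3 had adjusted p of 0.061 and 0.097. The share of all genes called was 2.16% with RLE scaling, 2.05% with upper-quartile scaling, 3.69% with no low-count filter and 2.46% with a filter of 2 CPM in 3 libraries. It was 4.2% with DESeq2, 1.64% with voom, 1.08% with the length offset, 1.12% with the deposited values and 1.88% with protein-coding transcripts. Without control libraries 2, 3 and 4 in turn it was 1.27%, 1.55% and 0.791%, without ventral midbrain libraries 2, 3 and 4 in turn 0.957%, 1.43% and 1.01%, and without both libraries numbered 3 it was 1.53%.

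**Figure D3:**
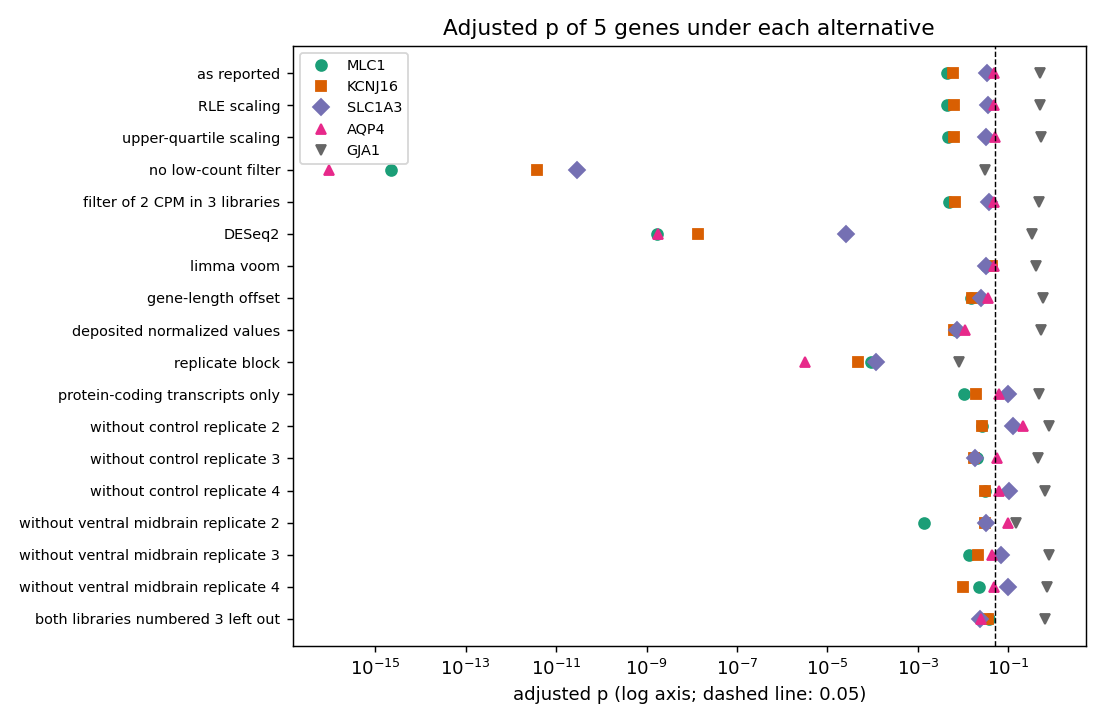
Adjusted p on a log axis for the 4 genes that rose and GJA1, one line per alternative, with 0.05 as a dashed line. MLC1 and KCNJ16 lie below 0.05 in each line, AQP4 and SLC1A3 cross it in 5 lines each, and GJA1 lies below it in 2.

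Per transcript length, as the sum of a gene's deposited TPM, Salmon's length-scaled share of transcripts, the order of levels differed between the groups. In control libraries GLUL was at 8.57 ± 0.939 TPM (SD, n = 3), ATP1B2 at 7.71 ± 0.445, GJA1 at 7.37 ± 2.18 and SLC1A3 at 4.58 ± 1.93, and the first 3 lay within their spread of each other. MLC1 followed at 1.06 ± 0.113 TPM and SLC4A4 at 1.05 ± 0.246 TPM. In ventral midbrain libraries SLC1A3 led at 15.7 ± 3.78 TPM, before GLUL at 12.2 ± 1.3 and ATP1B2 at 9.01 ± 2.55, with SLC1A3 and GLUL within their spread of each other. AQP4 went from eighth to sixth place, from 0.234 ± 0.115 to 2.15 ± 1.3 TPM. KCNJ10 was last in both groups at 0.0582 ± 0.0411 and 0.0942 ± 0.0319 TPM. SLC1A2, at 0.598 ± 0.26 and 0.613 ± 0.693 TPM, was among the lowest 4 in both groups. TPM divides by length, which these 3' end libraries do not need, so the order favours short transcripts.

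The reads of 5 of the 10 genes fell at a single 3' end. AQP4, KCNJ10, MLC1, GJA1 and ATP1B2 had reads at 1 annotated end each, and the other 5 had reads at 2 to 8 ends (ends within 100 bases were joined). A poly(A) signal, AATAAA or ATTAAA, stood in the last 50 bases of the most used end in 9 of the 10 genes, GLUL being the exception, and in 31.3% of all annotated transcripts. In KCNJ16 the last end took 100% of reads in 3 of 3 control libraries and 94.6%, 88.5% and 84.3% in ventral midbrain libraries. The remainder was assigned to a retained-intron transcript that ends 33398 bases earlier. With 14 to 30 control reads per library, 0 reads there allow a share of up to 10% to 21.4%, so no single control library had the depth to show a share like the 5.38% to 15.65% of ventral midbrain libraries at the lower end of that range. Pooled over 71 control reads, 0 allows up to 4.23%. These limits cover counting error alone.

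SLC4A4 reads divided among 5 ends. The last end took 86.4%, 65.6% and 15.7% in control libraries, against 37.8%, 28.5% and 28.1% in the ventral midbrain group. A pair of ends 3492 and 3629 bases earlier took together 0%, 0% and 38.9% in control against 56.8%, 31.5% and 38.6% in ventral midbrain libraries. Control library 4 was thus unlike the other control libraries, and its share at the inner pair of ends lay inside the ventral midbrain range. SLC1A3 kept 85.9% to 96.4% of its reads at the last end in the 6 libraries, the remainder lying at ends at least 17100 bases earlier. In SLC1A2, with 12 to 45 reads per library, the share at the last end ran from 0% to 89.3% within the ventral midbrain group. Over the 5 genes compared, the share at the most used end had two-sided exact permutation p from 0.1 (KCNJ16) to 0.6 (SLC1A2), with Benjamini-Hochberg adjusted values of 0.5 to 0.6. With 3 against 3 libraries 0.1 is the smallest p that can be reached, and Salmon's division of reads between overlapping transcripts adds error that these shares do not show.

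**Figure D4:**
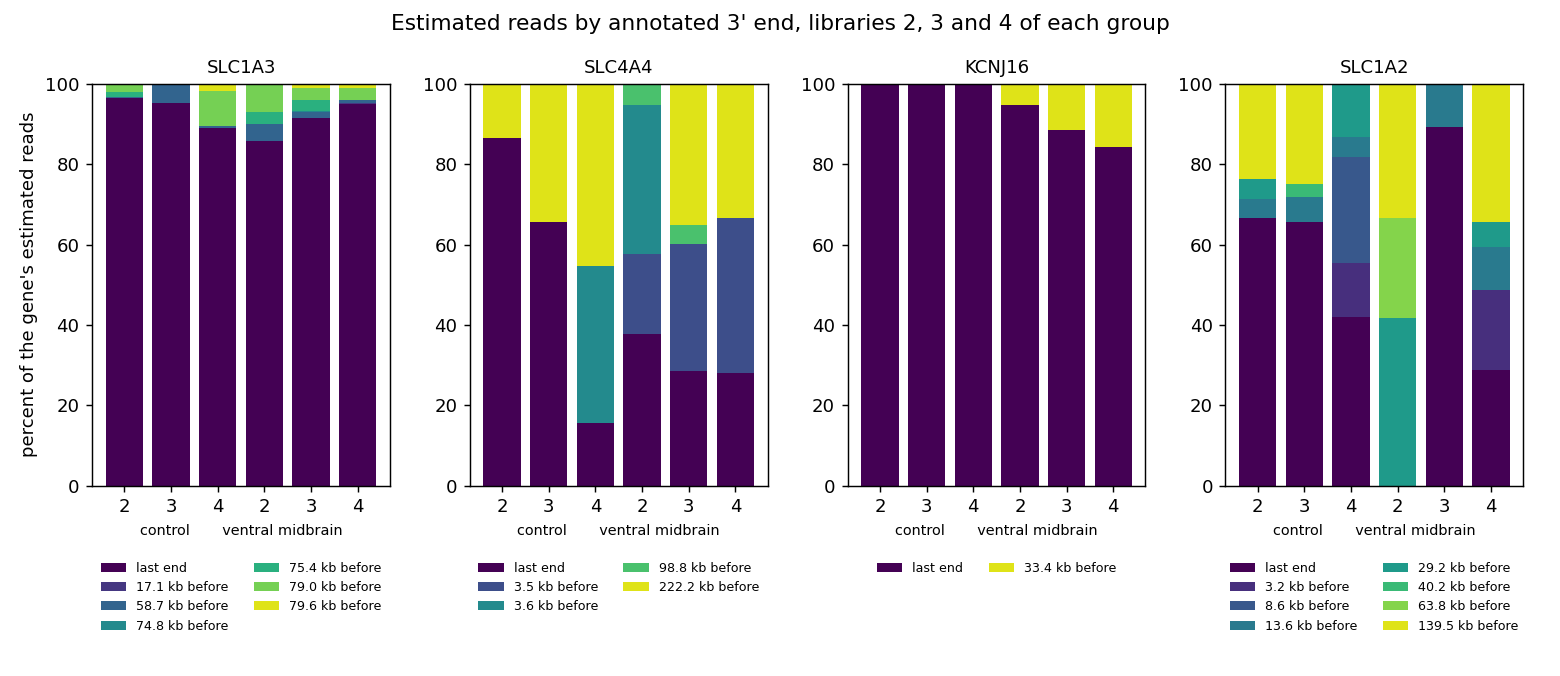
Percent of a gene's estimated reads at each annotated 3' end in the 6 libraries, for 4 genes with several ends, with the distance of an end before the last one in kilobases. The last end holds at least 84.3% of KCNJ16 reads and 85.9% of SLC1A3 reads in each library, and SLC4A4 and SLC1A2 divide differently from library to library.

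Beyond the 10 genes, 84 further genes of the same pathways were followed in 5 lists, of which 69 were tested. ATP1B1 rose and 0 fell (2 higher and 4 lower with DESeq2, 1 and 1 with voom), against 2.15% of all genes called. At an unadjusted p under 0.05 stood 17 of the 69, and 12.01% of all tested genes. Their median log2 fold change was 0.00, against 0.01 for all genes, and groups did not overlap in 18 of the 69, against 17.9% of all genes. With the replicate block 5 were higher and 5 lower, against 8.13% of all genes called. Those 10 genes, some of which are named below, were singled out after their values were seen.

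Of the other beta subunits of the sodium pump ATP1B1 passed the test and ATP1B3 did not. ATP1B1, the most widespread beta subunit, rose from 109, 92.0 and 80.0 CPM in control to 213, 255 and 187 CPM in ventral midbrain libraries, a log2 change of 1.22 ± 0.18 (SE) with an adjusted p of 0.0062 in edgeR. ATP1B3 was at 127 ± 28.6 and 103 ± 23.5 CPM (SD, n = 3; edgeR adjusted p = 0.68). FXYD6, a pump regulator, was at 272 ± 54.1 and 343 ± 64.1 CPM (SD, n = 3; edgeR adjusted p = 0.58). Of the 18 tested potassium channel, pump and chloride cotransport genes 1 rose and 17 did not pass, against 2.15% of all genes called. At an unadjusted p under 0.05 stood 6 of the 18 (12.01% of all tested genes). In the blocked fit FXYD5, at 11.5 and 5.26 CPM, was also lower and the calcium-activated potassium channel gene KCNN3, at 17.3 and 29.6 CPM, higher (edgeR adjusted p = 0.031 and 0.012 with the block, and 0.090 and 0.15 without it).

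**Figure D5:**
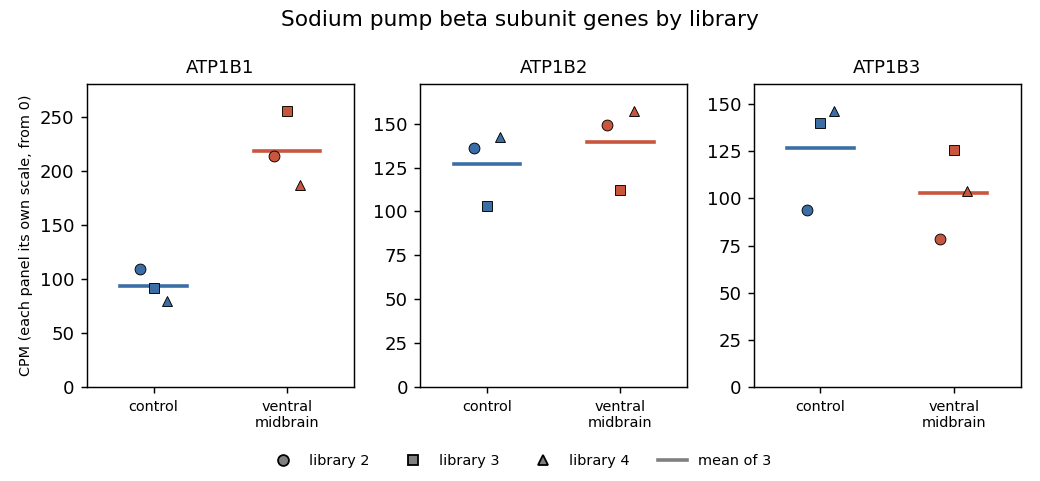
CPM of 3 sodium pump beta subunit genes in the 6 libraries, each panel on its own linear axis from 0, with points as libraries and lines as means of 3. The ATP1B1 points of ventral midbrain libraries (187 to 255 CPM) lie above those of control (80.0 to 109 CPM), and the ATP1B2 and ATP1B3 points overlap between the groups.

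Of 17 tested genes of water transport and the endfoot scaffold, which anchors AQP4, 0 passed the test, with 4 at an unadjusted p under 0.05 (12.01% of all tested genes). GPRC5B was at 82.5 ± 15.9 and 84.7 ± 34.5 CPM, UTRN at 120 ± 12.97 and 91.1 ± 10.6 CPM and DTNA, the dystrobrevin of the scaffold, at 60.5 ± 15.7 and 79.6 ± 5.48 CPM (SD, n = 3; edgeR adjusted p = 0.98, 0.31 and 0.47). SNTB1 was at 14.6 and 5.28 CPM (adjusted p in edgeR = 0.24, or 0.0031 in the blocked fit). The other water channels of the list were low, AQP1 at 0 to 7 reads and AQP9 at 0 to 2 reads per library.

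Of 19 tested genes of the glutamate and glutamine cycle 0 passed the test, with 4 at an unadjusted p under 0.05 (12.01% of all tested genes). The glutamine carriers SLC38A1 and SLC38A2 were at 138 ± 16.1 and 154 ± 25.1 CPM and at 184.5 ± 19.0 and 249.6 ± 24.0 CPM (SD, n = 3; edgeR adjusted p = 0.81 and 0.24, or 0.046 for SLC38A2 in the blocked fit). GOT2, the mitochondrial aspartate aminotransferase, was at 71.7 ± 8.88 and 75.5 ± 7.68 CPM (SD, n = 3; edgeR adjusted p = 0.92). ABAT, which breaks down GABA, was at 15.1, 19.4 and 9.76 CPM in control and 36.3, 39.5 and 25.4 CPM in ventral midbrain libraries (adjusted p in edgeR = 0.055, or 0.00048 in the blocked fit).

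Of 11 tested genes of bicarbonate, proton and lactate transport 0 passed, with 2 at an unadjusted p under 0.05 (12.01% of all tested genes). SLC4A7 was at 79.3 ± 16.6 and 77.0 ± 3.79 CPM, CA12 at 338 ± 58.7 and 316 ± 55.5 CPM and the lactate transporter gene SLC16A1 at 136 ± 24.8 and 153 ± 35.1 CPM (SD, n = 3; edgeR adjusted p = 0.97, 0.92 and 0.85). CA2, a cytosolic carbonic anhydrase, was at 41.8, 30.4 and 25.7 CPM in control and 15.3, 6.67 and 4.44 CPM in ventral midbrain libraries, without overlap (adjusted p in edgeR = 0.083, or 8.1e-05 in the blocked fit). CA14 and SLC16A3 had adjusted p of 0.24 and 0.61, and 0.011 (higher) and 0.00039 (lower) with the block. The gap junction list also holds pannexin genes and the scaffold gene TJP1, and its 4 tested genes were GJC1, PANX1, PANX2 and TJP1. Of these 0 passed, with 1, PANX2, at an unadjusted p under 0.05 (12.01% of all tested genes). PANX2 was at 2.30 and 0.682 CPM without overlap (edgeR adjusted p = 0.25). GJC1 was at 85.4 ± 10.6 and 84.0 ± 15.2 CPM, TJP1 at 101 ± 12.8 and 129 ± 14.6 CPM and PANX1 at 7.73 ± 1.41 and 11.61 ± 4.15 CPM (SD, n = 3; edgeR adjusted p = 0.98, 0.42 and 0.52).

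The summed levels of some marker lists of other cells differed between the groups alongside the 4 genes that rose. For the counts below, the shares over all tested genes were 2.15% called on group alone and 8.13% called with the block. An unadjusted p under 0.05 held for 12.01% of all tested genes, and groups without overlap for 17.9%. Ependymal cells also carry AQP4, and of 9 ependyma and choroid plexus markers 3 were tested and 0 passed, with 2 at an unadjusted p under 0.05 and 2 higher with the replicate block. Their summed level was 7.11 to 20.3 CPM in control and 60.4 to 92.8 CPM in ventral midbrain libraries, most of it FOXJ1 at 3.48 to 16.1 and 50.7 to 82.4 CPM. TTR, a defining choroid plexus transcript, had 0 reads in each library. The 3 tested markers, FOXJ1, DNAH9 (2.76 and 7.05 CPM) and PIFO (0.917 and 1.56 CPM), had positive fitted changes and no overlap between the groups. FOLR1, at 0.513 and 0.0239 CPM, and CLIC6, at 0.570 and 0.128 CPM, had lower means in ventral midbrain libraries and were too low to test. The control reads of FOLR1 all came from control library 3. CFAP126, KCNJ13 and AQP1, also too low to test, had higher means in ventral midbrain libraries. Within the ventral midbrain group FOXJ1 was highest in library 2 and AQP4 in library 4, an order of 3 libraries that was not tested. Of 6 mesenchyme markers COL1A1 and COL3A1 fell, and the list's sum was 892 to 1476 CPM in control and 423 to 465 CPM in ventral midbrain libraries, most of it COL1A1 at mean levels of 910 and 277 CPM. DCN, at 0.407 and 1.81 CPM, and LUM, at 0.524 and 2.80 CPM, lay the other way without overlap and did not pass (edgeR adjusted p = 0.29 and 0.30), and PDGFRB was at 17.6 and 15.8 CPM. The neuron markers summed to 1315 to 2039 and 847 to 1242 CPM, with 0 of 7 tested genes past the test and 1 at an unadjusted p under 0.05. Most of the difference in sum was STMN2, at 1061 and 449 CPM, and 5 of the 7 had a positive fitted change. STMN2 and DCX were lower in the blocked fit (edgeR adjusted p = 0.0091 and 0.0034). Of 6 neural progenitor markers PROM1 rose, TOP2A was also higher in the blocked fit (edgeR adjusted p = 0.0078 there and 0.90 without the block), and the sums overlapped at 1280 to 2846 and 1468 to 3617 CPM. Of 4 tested oligodendrocyte lineage markers PDGFRA fell, SOX10 had 0 reads, and the sums overlapped at 234 to 259 and 228 to 267 CPM. The 10 astrocyte markers summed to 4846 to 5712 and 5509 to 6330 CPM, most of it VIM at mean levels of 3609 and 4485 CPM. NFIA, a gliogenic factor, rose as 1 of 9 tested, and the blocked fit called NFIA higher and 2 others lower. These were SOX9, at 258 and 191 CPM, and CD44, at 909 and 608 CPM (edgeR adjusted p = 0.25 and 0.37, or 0.030 and 0.0045 in the blocked fit). The part of these cells in the changes of AQP4, MLC1, KCNJ16 and SLC1A3 was not tested.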

How the data were processed

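Per the labels' protocols, RNA was extracted with TRIzol and made into 3' end libraries (QuantSeq forward kit). Salmon (version not named), DESeq2 1.27.12 and GRCh38.p13 are named in the submitters' processing notes. Each library's deposited file holds, per the file headers, estimated counts, TPM and effective lengths of 226608 transcripts. A deposited normalized signal table of 21509 genes from the authors served as an alternative, on log2(value + 1).

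Estimated counts were summed per gene with GENCODE release 29 (90.6% of transcripts matched by identifier; unmatched ones held 0.992% to 1.11% of reads), rounded, filtered with filterByExpr and scaled by TMM. edgeR 4.0.16 in R 4.3.3 (quasi-likelihood, robust) compared the groups with Benjamini-Hochberg adjustment over 15984 genes. SE was taken as the size of the log2 change over the root of the F statistic. DESeq2 1.42.0 and limma 3.58.1 (voom) served as alternatives, beside other scalings, filters, a length offset, protein-coding transcripts, a replicate block and left-out libraries. No source used here states the strand setting, so overlapping and antisense genes are uncertain.

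The groups share replicate numbers. Deviations from group means correlated at 0.234, 0.345 and 0.204 between same-numbered libraries, against at most 0.0237 for other pairs. The numbers were therefore taken to pair the libraries in the blocked fit, which served as an alternative. Calls reported without mention of the block come from fits on group alone, which leave this pairing out. No label says what they share. Tested on simulated counts for this comparison (15479 genes), the test recovered 37% of 100 changes of 2-fold and 98% of 100 changes of 4-fold, and 14 of 149 calls were false. The changes were planted in genes with a log2 mean CPM of at least 2, and no pairing was simulated. KCNJ10 and SLC1A2, with means of 0.668 and 2.16 CPM over all libraries, lie below that level, so these rates do not cover them.

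The genes and lists were chosen with earlier results of these data known. Beyond the 10 genes, those named are, per pathway list, genes past the test and the 3 with the highest mean CPM, and per gene the tested protein-coding gene with the most similar profile. Genes named for a blocked value, a defining role or a left-out limit were chosen after their values were seen, as was the fit without both libraries numbered 3. Some genes of these lists are counted but not reported by name here. Figures were drawn with matplotlib 3.10.9.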

Additional observations from a re-analysis of the deposited data

How the results depend on the processing

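The count of 4 higher among the 10 genes was 4 in 10 of the 11 alternatives other than single left-out libraries, 2 with protein-coding transcripts alone, and 2 to 3 with single libraries left out (AQP4 or SLC1A3 was lost). The count of lower genes was 1 instead of 0 with no low-count filter and with the replicate block, GJA1 in both. No sign of a fold change turned for any of the 10 genes under the alternatives run, and the blocked fit changed no other call among them. Over all genes, 169 higher and 175 lower became 461 and 551 with no low-count filter, 320 and 408 with DESeq2, 82 and 91 with the gene-length offset, and 581 and 719 with the replicate block. Without both libraries numbered 3 the higher count was 111, and with single libraries left out the counts ran from 59 to 120 and from 72 to 138. Among the 69 pathway genes, 1 higher and 0 lower became 4 and 4 with no low-count filter, 2 and 4 with DESeq2, 1 and 1 with voom, 5 and 5 with the replicate block, and 1 to 2 and 0 to 2 with single libraries left out. The share at the last 3' end of SLC4A4 differed between groups by -9.18 percentage points without control replicate 2 and -44.5 without control replicate 4, against -24.4, and for SLC1A2 by 0.988 without ventral midbrain replicate 2 and -43.7 without ventral midbrain replicate 3, against -18.7; the cause of these changes was not tested. Depth limits KCNJ10 (3 to 16 reads per library), SLC1A2 (12 to 45) and KCNJ16 in control (14 to 30).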

Other observations

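Across the 6 libraries, the protein-coding gene whose log2 CPM followed MLC1 most closely among 11181 compared was FAM198B (Pearson r = 0.993), at 5.71, 6.33 and 5.67 CPM in control and 24.8, 57.3 and 48.3 CPM in ventral midbrain libraries. For SLC1A3 it was BTBD17 (r = 0.989), at 4.46 to 7.19 and 11.57 to 22.3 CPM, and for KCNJ16 it was NLRP1 (r = 0.996), at 114 to 184 and 341 to 548 CPM. These 3 genes rose too (edgeR adjusted p = 0.0019, 0.045 and 0.0066). For AQP4 it was IP6K2 (r = 0.996), whose own change was small, with a log2 fold change of 0.24 (edgeR adjusted p = 0.55). The 6 points of each correlation share the 2 groups, so the values describe likeness and carry no test. FAM198B, BTBD17 and NLRP1 were picked for likeness to genes already called higher, so a low adjusted p was likely and is no separate evidence.

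AC008957.3, a gene model on the same strand that lies inside SLC1A3 without touching its exons (chromosome 5, 36667717 to 36669958), had 60, 50 and 55 reads in control and 120, 193 and 190 reads in ventral midbrain libraries. Its log2 fold change was 1.51 ± 0.32 (SE; edgeR adjusted p = 0.037), beside 1.42 ± 0.27 for SLC1A3. Whether these reads belong to SLC1A3 transcripts was not tested.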
